A study of Mus musculus with 3 samples.

Results

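Of 29220 nuclei kept from 3 lacrimal gland libraries, 390 carried a salivary secretory transcript set: UMIs of Bpifa2, Smr3a, Amy1, Cst10 and Chia1 that summed to at least 5, came from at least 2 of these genes and made up at least 0.5% of the barcode's UMIs. A UMI is a molecular barcode that counts 1 captured RNA molecule. Kept barcodes had at least 500 UMIs, at least 300 genes and at most 5% mitochondrial UMIs, and the barcodes that met the rule are called members below. The rule itself used measured values, so the levels of the 5 genes in members are a description of what was selected.

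The study profiled nuclei of mouse lacrimal gland, the gland that secretes the aqueous part of tears, with droplet 3′ RNA sequencing. The 3 libraries, 1 for each group, came from normal control mice, from dry eye mice given scopolamine (SCOP, a muscarinic blocker) with dry stress (DS), and from mice of that dry eye model that also received tamsulosin, a blocker of alpha-1 adrenergic receptors. They are called the control, scopolamine and tamsulosin libraries. Strain, age, dose, time and the number of mice in a library are not given in the sources used here. The protocol text also mentions sorting nuclei positive for red fluorescent protein (RFP), and whether these libraries were sorted could not be settled. With 1 library for each group there is no replicate check, and no difference between libraries was tested. All intervals are 95% intervals that cover counting error only, and library and treatment cannot be told apart.

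Serous salivary cells, above all those of the parotid gland, make and store a small number of secreted proteins and release them on parasympathetic and sympathetic stimulation. Parotid secretory protein (Bpifa2) and amylase (Amy1) are classic products of these cells. Lacrimal acinar cells share the same layout of secretory granules, muscarinic receptors and fluid transporters, but their abundant products in the mouse are other proteins, among them secretoglobins, Mucl2 and odorant-binding proteins. Pax6 takes part in the formation of the eye and lacrimal gland, and Pax9 and Pitx1 mark oral and pharyngeal epithelium.

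The libraries held 7253 (control), 10024 (scopolamine) and 12322 (tamsulosin) deposited barcodes with 33500727, 35237256 and 57969348 UMIs. Among kept barcodes the median depth was 2326 UMIs in control, 1740 in scopolamine and 3355 in tamsulosin. Mucl2, Scgb2b2 and Scgb1b2, secreted products of the lacrimal gland, together took a median of 4.39% of a barcode's UMIs in control, 17.2% in scopolamine and 20.8% in tamsulosin. Pairs of libraries shared 22, 30 and 35 barcode sequences. Of the tamsulosin members, 3 had a barcode also present in the control library and 3 had one also present in the scopolamine library, and no barcode was a member in both control and tamsulosin. Doublet scoring called 0, 0 and 1 barcodes, too few to have worked, so the highest scores were used as an alternative.

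Members made up 43 of 7194 kept nuclei in the control library, or 0.598% (exact binomial interval 0.433% to 0.804%). None of the 10006 kept nuclei of the scopolamine library was a member, which allows a share of up to 0.03% by the limit of 3 counts and 0.0369% by the exact binomial interval. The tamsulosin library held 347 members of 12020 kept nuclei, or 2.89% (interval 2.59% to 3.20%). The counting intervals of control and tamsulosin do not overlap, and the scopolamine limits lie below both, but each interval covers barcodes of 1 library only. Members inside the cluster that held most of them, described below, made up 0.514% of control nuclei (0.362% to 0.708%) and 1.68% of tamsulosin nuclei (1.46% to 1.93%). The scopolamine library held more kept nuclei than the control library.

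**Figure D1:**
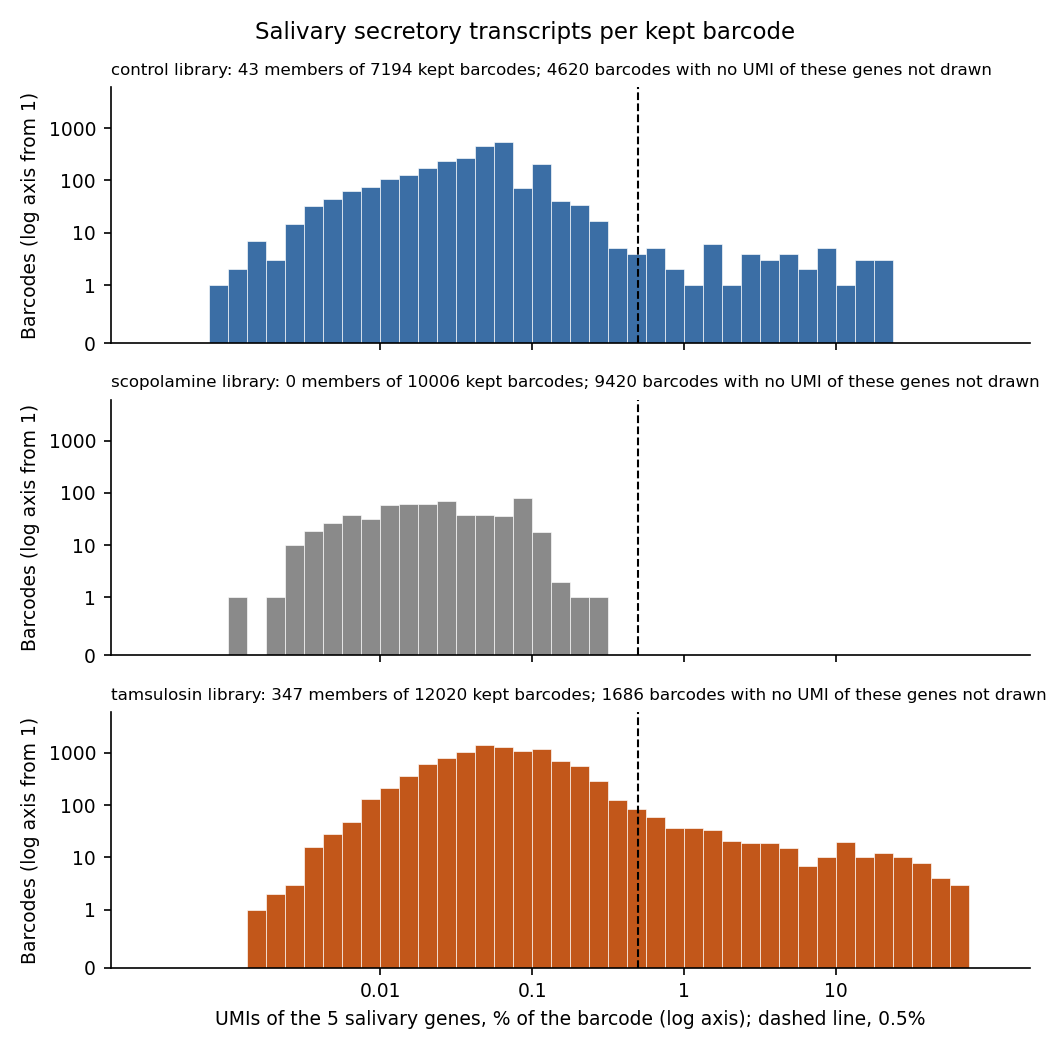
Kept barcodes of the control, scopolamine and tamsulosin libraries by the share of their UMIs from the 5 genes (x axis, %, log scale); bars count barcodes (y axis, log scale from 1) and the dashed line marks 0.5%. A tail beyond the line holds 43 barcodes in control and 347 in tamsulosin, while the highest scopolamine barcode is at 0.239%.

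Few barcodes lay close to the 0.5% limit in control, and more in tamsulosin. Between 0.5% and 0.6% there were 4 control and 39 tamsulosin members. Between 0.4% and 0.5%, and passing the other 2 conditions, there were 2 control and 73 tamsulosin barcodes. The lowest member had a share of 0.510% in control and 0.501% in tamsulosin, against 0.444% and 0.499% for the highest non-member. A limit of 1% left 33 control and 228 tamsulosin members. In the tamsulosin library the number of barcodes fell off gradually across the limit. In control both sides of it held only a few barcodes.

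In the scopolamine library Bpifa2, the parotid secretory protein, and Smr3a, a secreted peptide precursor of salivary glands, had 0 UMIs among 35204056. A count of 0 there allows up to 0.0852 counts per 1000000 UMIs (CPM) for each. Chia1, an acidic chitinase that degrades chitin, had 1 UMI, and Cst10, a cystatin (an inhibitor of cysteine proteases), had 2. Amy1, the salivary amylase, was the exception with 711 UMIs spread over 583 barcodes, or 20.2 CPM. The largest sum of the 5 genes in any scopolamine barcode was 5 UMIs.

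The 5 genes are protein-coding, and their places in the GRCm38 (mm10) gene annotation are chr2:154008265-154016079 for Bpifa2, chr5:88002549-88008534 for Smr3a, chr3:113555710-113606699 for Amy1, chr2:149405057-149410293 for Cst10 and chr3:106113229-106132120 for Chia1. Their RefSeq promoters (GRCm38.p6, which has the coordinates of mm10) are shown as a description of the rule genes. Their joint presence in members was part of the selection and is no sign of shared control. Each line gives the 60 bases just before an annotated start, 5′ to 3′ on the gene's strand, with TATAA, the core of a TATA box, in capitals. Bpifa2, Smr3a and Chia1 lie on the plus strand with windows chr2:154008216-154008275, chr5:88002465-88002524 and chr3:106113322-106113381. Cst10 is also on the plus strand, at chr2:149405189-149405248, and the 2 starts of Amy1 on the minus strand have the windows chr3:113577751-113577810 and chr3:113574763-113574822. The windows of Cst10, Chia1 and Amy1 lie inside the gene places given above, and that of Bpifa2 overlaps its gene place in part.
Bpifa2: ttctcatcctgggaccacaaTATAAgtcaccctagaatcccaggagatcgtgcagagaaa
Smr3a: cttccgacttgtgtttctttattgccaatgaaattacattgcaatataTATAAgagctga
Chia1: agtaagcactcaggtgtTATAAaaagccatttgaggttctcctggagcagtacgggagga
Cst10: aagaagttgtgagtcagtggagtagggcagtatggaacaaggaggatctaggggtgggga
Amy1 upstream start: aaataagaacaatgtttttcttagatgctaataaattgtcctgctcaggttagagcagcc
Amy1 downstream start: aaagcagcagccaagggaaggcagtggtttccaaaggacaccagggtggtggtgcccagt
The letters TATAA began 40 bases before the start in Bpifa2, 12 in Smr3a and 43 in Chia1, and were not in the windows of Cst10 or Amy1. Of 27025 genes in the table, 6.62% had TATAA in this window, and 8.47% had it on either strand. On either strand it was in 3 of the 5 genes, with the reverse form TTATA in Chia1 overlapping the one shown. A match describes the letters only.

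Bpifa2 reached 17583 CPM in control members (exact Poisson interval 16760 to 18436) and 35797 CPM in tamsulosin members (35453 to 36144). Per nucleus it ranged from 3 to 320 UMIs with a median of 16 in control, and from 1 to 11465 with a median of 20 in tamsulosin. Smr3a stood at 7744 and 19472 CPM, and Cst10 at 421 and 1266 CPM, in control and tamsulosin members. Over all members Amy1 went the other way, with 22307 CPM in control and 17158 CPM in tamsulosin. Its median was 31 and 11 UMIs per nucleus. Inside the cluster that held most members, described below, Amy1 stood at 25904 CPM in control and 28784 CPM in tamsulosin. Its median there was 42 and 24.5 UMIs, and 1 tamsulosin barcode held 3873 of the 18149 tamsulosin UMIs. Chia1 was alike over all members of the pair of libraries, at 2280 and 2692 CPM. Inside that cluster it was not, at 2697 CPM in control and 4517 CPM in tamsulosin. All 5 genes were found together in 18 of 43 control and 164 of 347 tamsulosin members.

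The balance of Bpifa2 and Amy1 differed between the libraries. Members had 0.788 Bpifa2 UMIs for each Amy1 UMI in control (interval 0.739 to 0.840) and 2.09 in tamsulosin (2.05 to 2.12). Bpifa2 UMIs outnumbered those of Amy1 in 9 of 43 control members and 295 of 347 tamsulosin members. The other kept nuclei of each library, which held only traces of these genes, showed the same difference, with 0.569 in control and 1.90 in tamsulosin. A single tamsulosin barcode of 35861 UMIs held 22786 UMIs of the 5 genes, 25.8% of the total over all tamsulosin members. Without it the ratio was 1.87 (1.84 to 1.91), Bpifa2 stood at 26709 CPM and Smr3a at 14529 CPM.

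**Figure D2:**
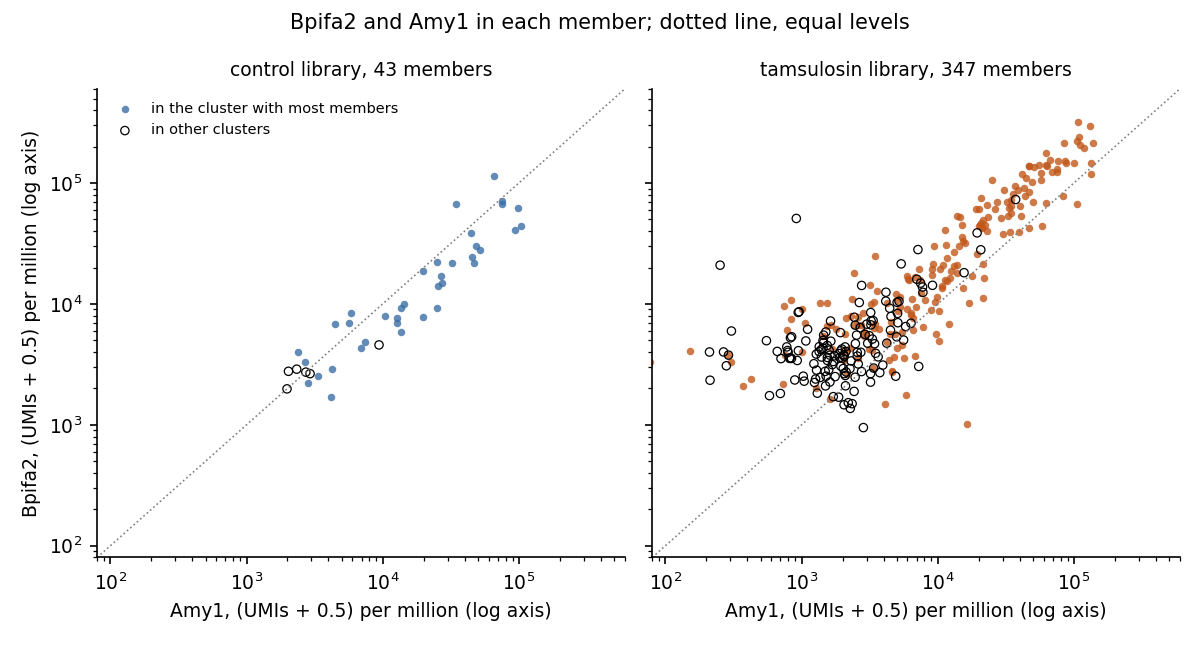
Bpifa2 (y axis) against Amy1 (x axis) in each of 43 control and 347 tamsulosin members, as UMIs plus 0.5, scaled to CPM of the barcode, on log axes; filled points lie in the cluster with most members, open circles in other clusters, and the dotted line marks equal levels. Bpifa2 lies above the line in 9 control and 295 tamsulosin members.

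The levels of the 5 genes varied together from nucleus to nucleus. Across the 43 control members Spearman's rho of the shares was 0.94 for Bpifa2 with Amy1 and 0.90 for Bpifa2 with Smr3a. Across the 347 tamsulosin members both were 0.80. These coefficients describe barcodes of 1 library each, which share depth and may share free RNA, and the rule required a high sum.

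Traces of the 5 genes were present far beyond the members. At least 1 UMI of the set was found in 35.4% of the other kept barcodes in control, 5.86% in scopolamine and 85.6% in tamsulosin. Macrophage-like nuclei, a cell type that should lack salivary proteins, held such a UMI in 30.8% of control, 5.07% of scopolamine and 84.5% of tamsulosin barcodes, at median depths of 2395, 1837 and 2620 UMIs. Those shares are read as background, whose source was not tested, and the tamsulosin library had the most of it. The summed level of the 5 genes outside members was 115 CPM in control and 516 CPM in tamsulosin, against 50335 and 76386 CPM in members.

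When all kept nuclei were clustered on their whole transcriptome, 1 of 22 clusters held most members. It had 250 barcodes, 37 from control, 0 from scopolamine and 213 from tamsulosin, and all 37 control and 202 of the tamsulosin barcodes were members. Its 5 leading genes were the 5 rule genes. It held 86.0% of control members and 58.2% of tamsulosin members. Since the rule selected on these genes, their lead in the cluster is no check of its name. This cluster is called salivary-type because the marker list that named it was these same 5 genes. Genes outside the rule are given below as a description, and where in the animal these nuclei came from was not tested. Of the other 6 control members, 4 lay in a cluster with Pnliprp1, a lipase-related secreted protein, among its leading genes. The 145 tamsulosin members outside the salivary-type cluster were spread: 60 lay in a cluster with few genes per nucleus led by Dcpp1, Ltf and Wfdc18, 35 in the duct-like cluster and 10 in the macrophage-like cluster. The cluster with 60 held 3296 tamsulosin barcodes, and 2 of the rule genes, Smr3a and Bpifa2, were also among its 10 leading genes. The median share of the 5 genes in these 145 members was 0.76%, against 3.68% inside the salivary-type cluster. Of the 145, 18 had one of the highest doublet scores, against 1 of the 202 inside.

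Control and tamsulosin members also differed in how many kinds of transcript they held. At a fixed 1000 UMIs, control members had a median of 642 genes and the other control nuclei 687. Tamsulosin members had 394 genes and the other tamsulosin nuclei 509. Malat1, an RNA that stays in the nucleus, made up a median of 2.53% of UMIs in control members and 1.53% in tamsulosin members, against 2.97% and 2.25% in the other nuclei. In members where the 5 genes took 10% of the UMIs or more, 7 in control and 67 in tamsulosin, the median was 555 genes in control and 248 in tamsulosin, with Malat1 at 2.09% and 0.82%. A large share for a few genes leaves fewer UMIs for others, and rho between the share of the 5 genes and the gene number was -0.85 in control (n = 43) and -0.39 in tamsulosin (n = 347). Between shares of 2% and 5% the medians were 643 and 439 genes, and between 5% and 10% they were 617 and 274. At a like share of the 5 genes, tamsulosin members thus held fewer genes than control members. Mucl2, Scgb2b2 and Scgb1b2 also took a median of 5.25% of UMIs in control members and 25.0% in tamsulosin members, and their part in this difference was not tested.

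**Figure D3:**
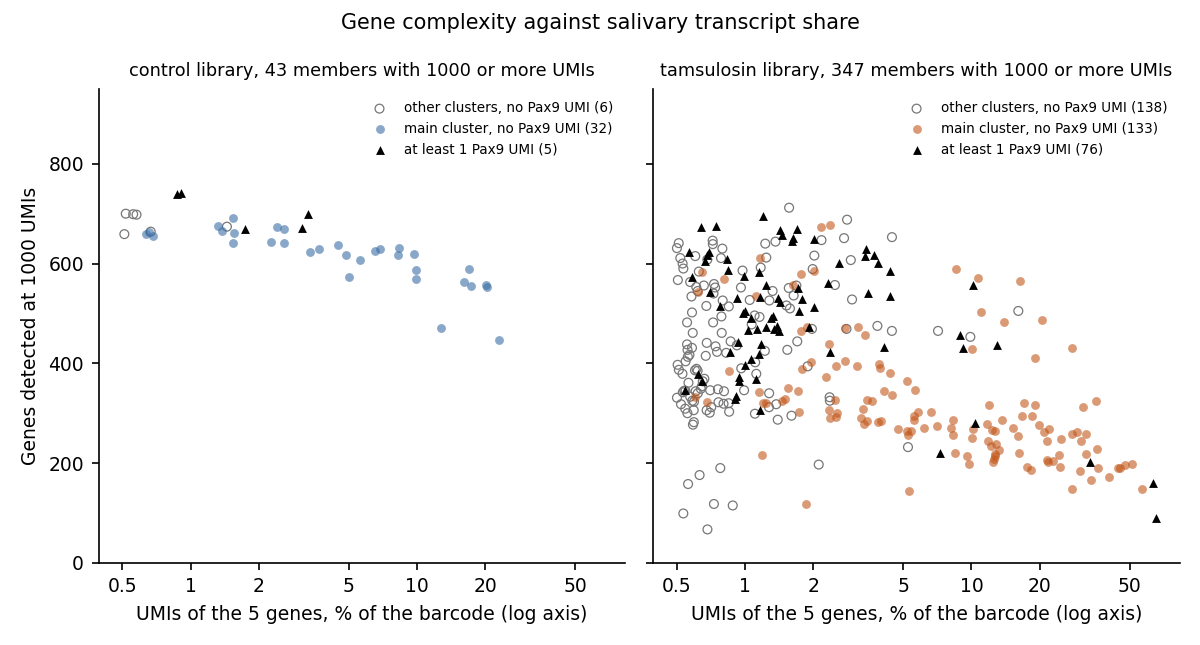
Genes detected at 1000 UMIs (y axis) against the share of the 5 genes (x axis, %, log scale) for each member of the control (43) and tamsulosin (347) libraries; triangles are the 5 control and 76 tamsulosin members with a Pax9 UMI, filled circles members of the main cluster without one, open circles members of other clusters without one. The 7 control members at 10% or more have a median of 555 genes, and the 67 tamsulosin members there have 248.

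A group of members could be set apart by Pax9, a paired-box transcription factor of pharyngeal and oral epithelium (chr12:56691767-56712822, plus strand). Pax9 was one of the genes named by the fixed rule, but the split by its UMIs was chosen after its values were seen. It stood at 134 CPM in control members (13 UMIs) and 0.24 CPM in the other control nuclei. In tamsulosin it stood at 182 CPM in members (210 UMIs) and 2.15 CPM in the others. Pax9 UMIs were found in 5 of 43 control members and 76 of 347 tamsulosin members, against 8 of 7151 and 88 of 11673 other nuclei. In the scopolamine library 4 of 10006 nuclei had a Pax9 UMI, none more than 1. Macrophage-like nuclei had 0 Pax9 CPM in control and 1.82 CPM in tamsulosin, far below members.

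All 3 control barcodes with 3 or more Pax9 UMIs were in the salivary-type cluster, and 35 of the 42 in tamsulosin. Counting any Pax9 UMI, 164 tamsulosin barcodes had one, and 83 of them were neither members nor in the cluster. Of the 76 tamsulosin members with Pax9, 69 lay inside the cluster. Another 5 barcodes of the cluster had Pax9 but a share of the 5 genes below the 0.5% limit. Members with Pax9 were deeper, with a median of 2703 UMIs in tamsulosin against 2176 without, and at 1000 UMIs per nucleus Pax9 was still seen in 51 tamsulosin and 3 control members.

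Tamsulosin members with Pax9 had the gene number and Malat1 share of the other nuclei. Their median was 509 genes at 1000 UMIs and 2.24% Malat1, against 509 genes and 2.25% in the other tamsulosin nuclei. Members of the same cluster without a Pax9 UMI, 133 nuclei, had 291 genes and 1.00% Malat1, and their median share of the 5 genes was 8.13% against 1.34% in the 69 with Pax9. In tamsulosin, Pax9 was seen in 23 of 119 members with a share below 1%, in 31 of 79 between 1% and 2%, in 13 of 57 between 2% and 5%, in 3 of 25 between 5% and 10%, and in 6 of 67 at 10% or more. Inside the cluster it was seen in 18 of 24, 29 of 47, 13 of 43, 3 of 22 and 6 of 66 members, from the lowest range of shares to the highest. Inside the cluster, with depth not matched, Pax9 was thus detected less often in each higher range. At 1000 UMIs per nucleus it was seen there in 9 of 24, 22 of 47, 10 of 43, 2 of 22 and 5 of 66. With depth matched, the lowest range was thus below the next, and the fall began after that. In control members with Pax9 (n = 5) the gene number was 699, and without it (n = 38) 634.

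Several genes were concentrated in the members with Pax9. In tamsulosin, 69 of the 76 members with Pax9 lay inside the salivary-type cluster, against 133 of the 271 without. Those inside had a median of 505 genes at 1000 UMIs with Pax9 and 291 without. The part of cluster and gene number in the contrasts below was not tested. Slc25a21, a mitochondrial carrier of dicarboxylates, stood at 553 CPM in tamsulosin members with Pax9, 40.3 CPM in those without, and 7.38 CPM in the other nuclei. Its annotation overlaps that of Pax9 by 189 bases on the opposite strand, so that reads in the overlap may not be separable where counting ignores strand. B4galnt3, a glycosyltransferase, stood at 462, 12.7 and 1.48 CPM in the same 3 sets. Pde3a, a phosphodiesterase that breaks down cyclic AMP, stood at 664, 28.8 and 7.09 CPM.

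St3gal6, which adds sialic acid to glycans, stood at 424 CPM in tamsulosin members with Pax9, 32.2 CPM without and 9.53 CPM in other nuclei, and Ttpa, a carrier of vitamin E, at 205, 16.1 and 1.74 CPM. The 5 control members with Pax9 had 27 UMIs of Slc25a21, 22 of St3gal6, 9 of Pde3a and 6 of B4galnt3, or 1139, 928, 380 and 253 CPM. The 38 control members without it had 5, 2, 3 and 1 UMIs of these genes. The order was the same in the pair of libraries for these 4 genes. For Ttpa only 1 UMI was seen in control members. In control 1 deep nucleus of 13589 UMIs held 57.3% of the UMIs of the 5 members with Pax9. Without it, a choice made after seeing the data, the other 4 had 14 UMIs of Slc25a21, 14 of St3gal6, 3 of Pde3a and 5 of B4galnt3, or 1383, 1383, 296 and 494 CPM.

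For secreted products the order in tamsulosin turned on 1 barcode. Dnase1, a secreted nuclease, stood at 675 CPM with Pax9 and 3191 CPM without in control, and at 3849 and 2745 CPM in tamsulosin. Ggh, gamma-glutamyl hydrolase, stood at 169 and 1045 CPM in control, and at 2117 and 1184 CPM in tamsulosin. The tamsulosin barcode richest in the 5 genes has 7 Pax9 UMIs and held 679 of the Dnase1 and 336 of the Ggh UMIs of that set. Without it the members with Pax9 stood at 1700 CPM of Dnase1 and 1084 CPM of Ggh, below the members without Pax9, as in control. Slc25a21 (620 CPM), B4galnt3 (520), Pde3a (735), St3gal6 (421) and Ttpa (222) stayed above the members without Pax9 when it was left out.

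Of the listed factors of secretory cells, 9 were measured in control and 10 in tamsulosin, and Etv1 in tamsulosin was the only one 2-fold higher or lower in members. Etv1, an ETS-family factor, stood at 1912 CPM in tamsulosin members with Pax9 and at 347 CPM in members without, the level of the other nuclei (345 CPM). In control it stood at 2066 CPM with Pax9, 462 CPM without and 542 CPM in the others. Sox10, a factor of salivary and lacrimal acinar lineages, stood at 101, 18.4 and 18.6 CPM in tamsulosin, with 45 UMIs over all members. Pitx1, a factor of oral ectoderm, was scarce, with 2 UMIs in control members (20.5 against 0.24 CPM) and 11 in tamsulosin members (9.51 against 0.24 CPM). With nuclei thinned to 1000 UMIs its log2 ratio in control was -0.079, so its direction there is not kept. It did not reach the mean of 20 CPM set for counting a gene as measured. Nkx2-3, a homeobox factor, had 0 UMIs in members of the pair of libraries. Of the 6 listed oral factors, 2 were measured in control (0 higher, 1 lower by 2-fold) and 1 in tamsulosin (0 and 0).

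Of 5 measured genes of lacrimal gland formation, 1 was at least 2-fold lower in control members and 0 in tamsulosin members. Pax6 stood at 308 CPM in control members and 588 CPM in the other control nuclei, and at 196 against 360 CPM in tamsulosin. Macrophage-like nuclei held 410 and 198 CPM of Pax6, so the level in members was at or below theirs. In tamsulosin members with Pax9, Pax6 was at 139 CPM. Runx1 stood at 92.4 against 248 CPM in control and 259 against 417 CPM in tamsulosin, but macrophage-like nuclei, in which Runx1 is a known factor, had 505 and 491 CPM. Barx2 and Foxc1 differed by less than 2-fold. Runx1 in control was the factor at least 2-fold lower, and none was 2-fold higher. Over the 5 measured factors of this list the median log2 ratio of members to others was -0.69 in control and -0.63 in tamsulosin, against medians of -0.13 and -0.24 over all measured genes.

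Among all genes with a mean of at least 20 CPM, 260 of 5873 in control (4.43%) and 47 of 5074 in tamsulosin (0.926%) were at least 2-fold higher in members than in the other nuclei of the same library. At least 2-fold lower were 584 (9.94%) and 40 (0.788%). Control members summed to 97368 UMIs, so that 1 UMI is 10.3 CPM and many of these control ratios rest on a few UMIs. Tamsulosin members summed to 1156144 UMIs. These ratios use a pseudocount of 5 CPM. Inside the salivary-type cluster alone, 476 genes were at least 2-fold lower in tamsulosin members.

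Secreted proteins of the parotid gland outside the rule were partly higher in members. Over all measured genes, 4.43% in control and 0.926% in tamsulosin were at least 2-fold higher. Of 16 listed parotid genes 7 were measured in each library, and 3 of the 7 were at least 2-fold higher in each, with none 2-fold lower. With every nucleus thinned to 1000 UMIs the tamsulosin count was 1, and inside the salivary-type cluster it was 5. Dnase1 stood at 2578 against 462 CPM in control and 3020 against 414 CPM in tamsulosin, a fold of 5.58 (4.91 to 6.32) and 7.30 (7.04 to 7.56). Car6, the carbonic anhydrase secreted into saliva and tears, stood at 1992 against 737 CPM and 3659 against 1161 CPM. It was also among the 10 leading genes of clusters with few or no members. One of these held 513 control barcodes and 0 control members, and another 662 tamsulosin barcodes and 5 tamsulosin members. Macrophage-like nuclei had 333 CPM of Dnase1 and 860 CPM of Car6 in tamsulosin.

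The other gene of this list past 2-fold differed by library. In control it was Agt, angiotensinogen, on 5 UMIs (51.4 against 0.15 CPM), and in tamsulosin Prb1, a proline-rich salivary protein, on 58 UMIs (50.2 against 0.20 CPM). Each reached the mean of 20 CPM needed to be measured only through its level in members, so it could only count as higher. Without the tamsulosin barcode richest in the 5 genes, Prb1 stood at 34.8 CPM, which is below the level set for counting it. Prpmp5, another proline-rich protein, stood at 38.9 against 0.65 CPM in tamsulosin. Pip, a protein of saliva and tears, stood at 10646 against 5698 CPM in tamsulosin, 1.87-fold, and at 1243 against 1120 CPM in control. Lpo, the lactoperoxidase of saliva and tears, was at 323 against 231 CPM in tamsulosin and at 575 against 568 CPM in control. Wfdc18, a protease-inhibitor type protein, and Dmbt1, a mucosal scavenger protein, differed by less than 2-fold.

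Of 24 genes listed for submandibular and sublingual gland, 22 had 0 UMIs in control members and 16 had 0 in tamsulosin members, including Smgc, a mucin-like protein, and Muc19, a salivary mucin. Prol1, a proline-rich salivary protein, had 16 UMIs in tamsulosin members (13.8 against 0.253 CPM). Egf, epidermal growth factor, gave 31 of the 32 UMIs of this list in control members (318 against 299 CPM) and 126 in tamsulosin members (109 against 119 CPM), near the level of the other nuclei in each library. Amy2a5, the pancreatic amylase whose gene lies 297 kb from Amy1 on chromosome 3, had 0 UMIs in every library, and since amylase genes are near-identical copies, the split between them is uncertain. Dcpp1, named after the demilune cells of the sublingual gland and the parotid, stood at 701 CPM in tamsulosin members with 811 UMIs, and had 1 UMI in control members. Of the 1042 UMIs of Dcpp1, Dcpp2 and Dcpp3 in tamsulosin members, 94.0% came from 7 nuclei, the richest with 406. Only 1 of the 7 lay in the salivary-type cluster, and members outside it stood at 1419 CPM of Dcpp1 against 103 CPM inside. Dcpp1 and Dcpp2 overlap by 1974 bases and are close copies, so their separate values are uncertain.

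The genes with the highest ratio of members to others in tamsulosin included further secreted products. BC037156, annotated as a long non-coding RNA 88.4 kb from Smr3a on chromosome 5, stood at 2014 against 34.5 CPM. Ggh stood at 1416 against 28.7 CPM, and in control at 832 against 8.07 CPM. Crisp1, a cysteine-rich secretory protein, stood at 407 against 5.50 CPM, and in control at 390 against 1.60 CPM, and was the only gene of the lacrimal secretory list at least 2-fold higher in members in either library. Scgb1b27 and Scgb2b27, secretoglobins whose genes lie 7.54 kb apart on chromosome 7, stood at 470 against 11.3 and 600 against 23.5 CPM. Wfdc12, a protein with a protease-inhibitor fold, stood at 685 against 33.4 CPM.

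The barcode richest in the 5 genes contributed to several of these. Without it Scgb1b27 stood at 251 CPM, Wfdc12 at 440, Scgb2b27 at 400 and Crisp1 at 289 CPM in tamsulosin members. All 4 remained above the other nuclei. The gene model 2310057J18Rik, outside the naming rule and chosen after its values were seen, stood at 2598 against 9.73 CPM in control and 3968 against 81.9 CPM in tamsulosin. It was among the 10 leading genes of the salivary-type cluster. The same was true of a cluster with Car6 among its leading genes, with 662 tamsulosin barcodes and 5 tamsulosin members.

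**Figure D4:**
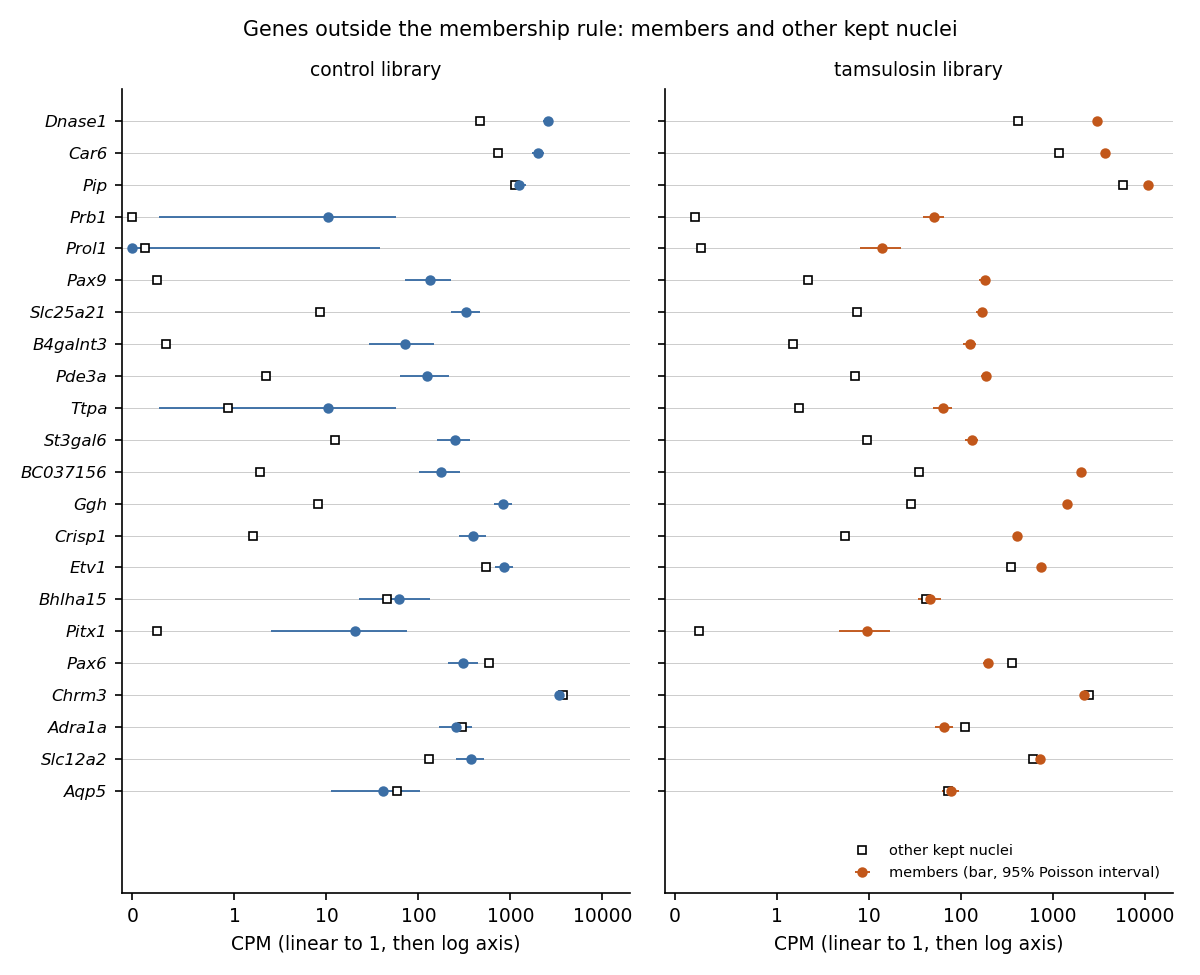
Levels of 22 genes outside the membership rule (x axis, CPM, linear to 1 and then log) in members (filled circles, bars are 95% Poisson intervals) and other kept nuclei (open squares) of the control and tamsulosin libraries. Dnase1, Pax9, Slc25a21, B4galnt3, Pde3a, St3gal6, BC037156, Ggh and Crisp1 are higher in members in both panels, while Pax6 is lower.

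The abundant lacrimal secretory products together made up 8.43% of UMIs in control members against 6.46% in the other nuclei, and 32.5% in both sets of tamsulosin nuclei. Mucl2 stood at 28007 against 20452 CPM in control and 107210 against 109158 CPM in tamsulosin, and Obp1a, an odorant-binding protein, at 21034 against 15995 and 74972 against 75278 CPM. Macrophage-like nuclei held 19953 and 91687 CPM of Mucl2. Of 16 measured genes of this list in control, 1 was 2-fold higher, 1 (Esp16, an exocrine gland-secreted peptide, on 3 UMIs) was 2-fold lower and the median log2 ratio was 0.26. Of 17 in tamsulosin, 1 was 2-fold higher, 0 were 2-fold lower and the median log2 ratio was -0.05. Tamsulosin members with Pax9 held less: 78704 CPM of Mucl2 and 52872 CPM of Obp1a, and 88390 and 59434 CPM without the richest barcode, below the macrophage-like level for Mucl2.

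The 8 genes with the lowest ratios in tamsulosin members included 3 that led the duct-like cluster, and control members did not all show the same. Dclk1, a microtubule-associated kinase, stood at 38.1 against 123 CPM, Chst9, a sulfotransferase, at 223 against 560 CPM and Wnt5b, a secreted signalling protein, at 37.2 against 94.9 CPM. Inside the salivary-type cluster they were lower still, at 11.1, 114 and 15.9 CPM. In control members Dclk1 had 0 UMIs (28.0 CPM in the others), Chst9 stood at 82.2 against 235 CPM on 8 UMIs, and Wnt5b at 41.1 against 31.1 CPM on 4 UMIs. In tamsulosin Junos, Pir, Grip1, Carmil1 and Wdpcp stood between 0.397-fold and 0.415-fold of the others. In control the log2 ratio was 0.41 for Carmil1 and 0.04 for Pir, and below 0 for Junos, Grip1 and Wdpcp, on at most 6 UMIs each.

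Of the listed receptors for secretory stimuli, 4 were measured in each library, and none of them was 2-fold higher or lower in members. Chrm3, the muscarinic receptor that drives fluid secretion and is blocked by scopolamine, stood at 3379 against 3756 CPM in control and 2143 against 2484 CPM in tamsulosin members. Tamsulosin members with Pax9 had 3119 CPM, and macrophage-like nuclei had 1370 CPM. Adra1a, an alpha-1 adrenergic receptor bound by tamsulosin, stood at 257 against 297 CPM in control and 65.7 against 111 CPM in tamsulosin. Macrophage-like nuclei had 68.3 CPM in tamsulosin, so the Adra1a level in tamsulosin members was not above theirs. Adrb1, the beta-1 adrenergic receptor of salivary protein secretion, had 3 UMIs in control members and 11 in tamsulosin members, or 9.51 against 2.71 CPM. Adrb1 was below the mean of 20 CPM set for counting a gene as measured.

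Genes of transport, granules and protein folding mostly differed by less than 2-fold. Of 11 measured transport genes, 4 were 2-fold higher in control members and 0 in tamsulosin. Among the 4 were Slc12a2, the sodium-potassium-chloride cotransporter (370 against 131 CPM), Kcnn4, a potassium channel (92.4 against 39.1), and Atp1b1, the beta-1 subunit of the sodium pump (51.4 against 9.85), on 36, 9 and 5 UMIs. Slc12a2 in tamsulosin was at 717 against 612 CPM, and at 1172 CPM in members with Pax9. Of 9 measured exocytosis genes in control and 8 in tamsulosin, 1 and 0 were 2-fold higher. The exception was Rab26, a granule GTPase, on 3 UMIs. Of 20 and 21 measured genes of the endoplasmic reticulum, none was 2-fold higher or lower. Xbp1, the factor of secretory capacity, stood at 380 against 459 and 242 against 269 CPM.

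Markers of other cell types are given inside and outside the salivary-type cluster as a description, since clustering used the same genes, so the difference is no test. T or NK markers summed to 3.17 CPM in its tamsulosin members, against 124 CPM in the members outside it and 50.4 CPM in the other nuclei. Endothelial markers summed to 36.5 against 192 CPM, and myoepithelial markers to 66.6 against 369 CPM, inside against outside. In control, B or plasma markers summed to 2985 CPM in the 6 members outside the cluster and 97.6 CPM in the 37 inside. Igha, the heavy chain of IgA, gave 39 UMIs in control members, 32 of them in 1 nucleus. Macrophage markers summed to 82.2 CPM in control members and 93.4 CPM in tamsulosin members, against 91.6 and 92.6 CPM in the other nuclei. Proliferation genes had 0 UMIs in control members, where the 3-count limit is 30.8 CPM and the other nuclei had 27.3 CPM, and 38.1 CPM in tamsulosin members against 29.3 CPM in the others. Of the inflammation list 3 genes were measured in control and 2 in tamsulosin, none 2-fold higher or lower. Of the immediate early list 3 and 2 were measured, and the 1 that was 2-fold higher, the nuclear receptor Nr4a1 in control, rests on 4 UMIs and turned to a log2 ratio of -1.77 at a share of 1% or more.

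Tamsulosin and control members were compared gene by gene, with the same ratio in the other nuclei of the pair of libraries beside it. The median log2 ratio of tamsulosin to control was -0.74 over 5336 genes in members and -0.58 over 5802 genes in the other nuclei, and gene ratios below marked as relative are given after subtracting it. At least 1.5-fold higher in this sense were 26% of genes in members and 14.9% in the others, and at least 1.5-fold lower were 17.1% and 7.96%. The comparison in members rests on 97368 control UMIs in 43 nuclei, and the part of this depth in the larger shares was not tested.

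Of 17 measured lacrimal secretory genes, 15 were higher and 1 lower by that measure in members, and 14 and 1 of 16 in the other nuclei. The shares of higher genes over all genes were 26% and 14.9%. Mucl2 was 3.83-fold higher in tamsulosin members (3.69 to 3.98) and 5.34-fold higher in the other nuclei. Ltf, lactoferrin, stood at 154 CPM in control members and 2777 CPM in tamsulosin members, and at 179 and 3725 CPM in the other nuclei. Pnliprp1 was 67.9-fold lower in members (40.9 to 119) and 44.2-fold lower in the others. Whether free RNA carried these transcripts into members was not tested, and neither was their part in members' own RNA.

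Of 9 measured parotid genes outside the rule, 7 were at least 1.5-fold higher in tamsulosin members relative to the median and none lower, and of 6 in the other nuclei, 4 higher and 1 lower. Over all genes, 26% were that much higher in members and 14.9% in the others. Since the mean of both libraries decided which genes were measured, a gene scarce in control could enter through tamsulosin alone. Pip was 8.57-fold higher in members (7.16 to 10.3) and 5.09-fold in the others. Car6 was 1.84-fold higher (1.59 to 2.13) and 1.58-fold. Dnase1 was 1.17-fold higher in members (1.03 to 1.34) and 1.12-fold lower in the others. Wfdc12 was 9.53-fold higher in members (4.60 to 23.8) and 2.04-fold in the others, on 7 UMIs in control members. BC037156 was 11.5-fold (7.19 to 19.8) and 18.2-fold higher.

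Of the 10 genes with the highest ratio in members, 7 had 0 UMIs in control members, and their folds are lower bounds against a floor of 3 UMIs over these members. They were at least 11.4-fold higher for Scgb2a2, a secretoglobin, 5.39-fold for Dcpp3, 4.01-fold for Mup5, a major urinary protein, 3.48-fold for Npas2, 2.53-fold for Naca, 2.16-fold for H2-T23 and 2.11-fold for Fyb. In the other nuclei Scgb2a2 was 21.1-fold higher, Npas2 4.55-fold and H2-T23 7.21-fold, while Naca was at 0.906-fold. Mup5 stood at 209 CPM inside the salivary-type cluster, 20.9 CPM in members outside it and 8.95 CPM in the other tamsulosin nuclei. Fyb, an adaptor protein of macrophages and T cells, stood at 19.0 CPM inside the salivary-type cluster and 120 CPM in members outside it.

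By the naming rule Npas2 was among the genes with the highest tamsulosin to control ratios in members, and Nr1d2 among those with the lowest. Npas2, a partner of Arntl, stood at 107 CPM in tamsulosin members and 306 CPM in those with Pax9, against 48.7 CPM in the other tamsulosin nuclei. Nr1d2, a repressor of the clock, was 7.08-fold lower in tamsulosin than in control members (4.39 to 11.3) and 3.72-fold lower in the others, and Tef, a clock output factor, 4.60-fold (2.74 to 7.47) and 3.28-fold lower. Of 8 measured clock genes, 3 were higher and 3 lower by 1.5-fold relative to the median in members, and 3 and 2 of 8 in the others. Over all genes in members the background shares were 26% higher and 17.1% lower. Within each library, 1 of 9 measured clock genes was at least 2-fold higher in control members (Hlf, an output factor) and 1 of 8 in tamsulosin members (Npas2), with none 2-fold lower. The hours of tissue collection are not given in the sources used here.

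The 10 lowest ratios were Esp36, Nr1d2, Cmss1, Trim24, Lars2, Igha, Cadm2, Bckdhb, Bcas3 and Jmy. Esp36, an exocrine gland-secreted peptide, was 7.21-fold lower in members (5.47 to 9.46) and 5.82-fold lower in the others. Cmss1 stood at 1006 CPM in control members and 168 CPM in tamsulosin members, and at 565 and 140 CPM in the others. Igha was 5.65-fold lower in members and 2.25-fold higher in the others, and its control level rests on the nucleus with 32 UMIs. Inside the salivary-type cluster it stood at 73.2 CPM in control and 73.0 CPM in tamsulosin. Apart from Igha, the 10 genes of this group were lower in both sets of nuclei.

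Chrm3 had a ratio close to that in the other nuclei, and Adra1a and Hspa5 went the same way in both sets of nuclei. Chrm3 was 1.58-fold lower in tamsulosin members (1.40 to 1.77) and 1.51-fold lower in the others, which is 0.08 and -0.02 on the relative log2 scale. Adra1a was 3.91-fold lower (2.38 to 6.21) and 2.68-fold lower. Hspa5, the main chaperone of the endoplasmic reticulum, was 1.52-fold higher (1.00 to 2.43) and 1.24-fold higher. Of 20 measured genes of that compartment, 10 were higher and 2 lower by 1.5-fold relative to the median in members, and 8 and 3 of 21 in the others. The median relative log2 ratio of this list was 0.62 in members and 0.23 in the others. The shares over all genes were 26% higher and 17.1% lower in members, and 14.9% and 7.96% in the others.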

How the data were processed

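UMI counts per gene and barcode were deposited by the authors for each library; per the submitters' processing notes they came from Cell Ranger 5.0.0 on mm10, and per the file headers they cover 32285 genes. Whether intronic reads or strand were used is not given in the sources used here. Members and gene lists were chosen with earlier results of these data known. Counts were summed over members and over other kept nuclei of a library and scaled to 1000000 (CPM). Ratios carry a pseudocount of 5 CPM, or, as folds, an exact conditional binomial interval. Shares have Clopper-Pearson intervals, and thinning drew 1000 UMIs per barcode. Clusters (scanpy 1.11.5, 2000 variable genes, 30 components, 15 neighbours, Leiden resolution 1.0) were named from marker lists under several conditions. At least 3 markers, and at least as many of the list as not, had to be 2-fold up. The median had to be at least 350 genes at 1000 UMIs. No other list could have more markers among the 10 leading genes, and a cluster of low depth needed a marker there. Named genes were the 5 rule genes, the 4 most abundant of each list and any with a stated role, the 15 highest and 8 lowest ratios of tamsulosin members to other nuclei, and the 10 highest and 10 lowest ratios of tamsulosin to control, at 50 CPM and 30 UMIs or more. Unnamed models, mitochondrial, ribosomal and haemoglobin genes were left out. The ratios of tamsulosin members to other tamsulosin nuclei were tested on simulated Poisson counts without spread between barcodes. That test does not cover control members or ratios between libraries. Some items are not reported here.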

Additional observations from a re-analysis of the deposited data

How the results depend on the processing

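The scopolamine library had 0 members under every alternative. The tamsulosin count of 347 became 228 at a share of 1% or more, 202 inside the salivary-type cluster and 76 with a Pax9 UMI (5 in control). Leaving out 1 of the 5 genes gave 34 to 43 control and 233 to 345 tamsulosin members. Genes at least 2-fold higher in control members (260) numbered 418 at a share of 1%, 550 with nuclei thinned to 1000 UMIs and 28 at a mean of 100 CPM, and those lower (584) numbered 902 at 1% and 43 at 100 CPM. In tamsulosin, higher genes (47) numbered 82 inside the cluster and 17 at 100 CPM. Lower genes (40) numbered 97 at 1%, 22 at 1000 UMIs and 500 genes, 476 inside the cluster, 235 thinned, 72 with a pseudocount of 1 CPM, 4 at 100 CPM and 121 without the 50 most abundant genes. Between tamsulosin and control members, 1389 higher genes became 295 at 100 CPM, and 912 lower genes became 1447 thinned, 205 at 100 CPM and 1397 without the 50 genes. Signs changed for Dcpp1 (-0.59), Pitx1 (-0.079) and Nr4a1 (-1.51) in thinned control members, Nr4a1 at 1% (-1.77) and Dcpp2 inside the tamsulosin cluster (-0.17), all log2. Relative log2 ratios of tamsulosin to control changed sign for Wnt5b thinned (-0.050), Grip1 inside the cluster (-0.51), Igha at 1% (0.39) and inside (0.87), and Nr4a1 at 1% (2.05) and thinned (2.27). Of 3166 log2 ratios, those of 96 genes and the medians of the lacrimal gland development list, 2881 moved by 0.5 log2 or less. Parotid genes 2-fold higher in tamsulosin (3) numbered 1 thinned and 5 at 1% or inside the cluster. The cause of these shifts was not tested. The cluster, Pax9, richest-barcode and deepest-Pax9-barcode alternatives were chosen after seeing the data. Acinar-like clusters as reference were not run, since no cluster met every naming condition for that class. The cluster led by Dcpp1, Ltf and Wfdc18 had 10 of 16 acinar markers at least 2-fold up. It stayed unnamed because its 10 leading genes held more of the rule genes (Smr3a and Bpifa2) than acinar markers (1). No paired analysis was possible because each group has 1 library. Control members hold 97368 UMIs, which limits their ratios.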
